A study of Mus musculus with 6 samples.

Results

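The genes described here are the kinase Uhmk1 (also called KIS, kinase interacting with stathmin), 3 of its known substrates (Stmn1, Sf1 and Pam) and the other stathmins Stmn2, Stmn3 and Stmn4. They were picked out of the table by gene symbol and make up 7 of the 17348 genes measured. All 7 were among the 13570 genes abundant enough to be tested. RNA was taken from mouse cortex at E18.5 (embryonic day) and sequenced as 6 libraries, 3 per group. The knockout group (cKO) was Nestin-Cre, Ybx1 fl/fl. The control group consisted of littermates. The study uses the name Ctrl for Ybx1 fl/fl embryos without Cre, but the labels call these libraries WT and its sequencing methods speak of wild type, so whether the sequenced controls carried the floxed alleles is not settled here. The floxed line was made in C57BL/6J, and the background of the Cre cross is not given in the sources used here. Nestin-Cre recombines in neural progenitors and their progeny, so vascular cells and microglia of the cortex should keep Ybx1, which was not measured here. In a bulk cortex sample, fewer cells of a type and less RNA per cell cannot be told apart.

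Ybx1 is an RNA-binding protein that reads 5-methylcytosine in mRNA and influences the stability of the mRNAs it binds. Uhmk1 is a serine/threonine kinase that phosphorylates substrates at serines followed by proline, and it carries a U2AF homology motif (UHM), the fold by which splicing factors recognise one another. Stathmins bind tubulin dimers and promote microtubule disassembly, an activity that phosphorylation turns off, and the neural members of the family are abundant in growing neurites. Sf1 binds the branch point during assembly of the spliceosome, and Pam amidates neuropeptides at their C-terminus. Uhmk1 was selected by the study as a Ybx1 target partly on these libraries, so a lower Uhmk1 level here is not independent evidence of that direction. The study counted it as lower in these libraries, by a test that its methods do not name. It also reports lower Uhmk1 by RT-qPCR in cKO cortex at other embryonic stages and after knockdown, and faster decay of the mRNA in cultured cKO cells. The selection rested as well on anti-Ybx1 RNA immunoprecipitation and on RNA-seq of earlier cKO cortex and of knockdown cells. The study further reports 5-methylcytosine on the mRNA by pulldown, and no effect of Ybx1 knockdown on its targets once the methyltransferases were knocked down.

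The coding sequence at the phosphorylated site shows how the substrates differ. The 30-base windows below are in the reading frame, 5′ to 3′ (GENCODE M21, GRCm38), and the capitals mark serine codons followed by a proline codon. In Stmn1 this is codon 38, the serine that Uhmk1 phosphorylates. The windows of Stmn2 to Stmn4 cover the aligned stretch, and that of Sf1 covers its tandem site.
Stmn1: gatttcccccttTCCCCCccaaagaagaag
Stmn2: ccacgaactctagctTCTCCAaagaagaaa
Stmn3: cctgtgctctctTCTCCTcccaagaggaag
Stmn4: gagtttaatgcctccctcccaagacggcga
Sf1: gaggacaggTCCCCTTCCCCTgaaccaatc
The Stmn1 window lies in exon 3 on the plus strand (chr4:134470753-134470782), that of Stmn2 in exon 3 on the plus strand (chr3:8545659-8545688) and that of Stmn3 in exon 3 on the minus strand (chr2:181308778-181308807). The Stmn4 window lies in exon 4 on the plus strand (chr14:66356831-66356860). The Sf1 window joins exons 3 and 4 on the plus strand (chr19:6368432-6371288, intron included), and its pair of capital codons starts at codon 80. Stmn4 has no serine-proline codon pair in the window, and none of its codons for serine or threonine is followed by proline anywhere in the coding sequence, where Stmn1 has 2 such pairs, Stmn2 has 2 and Stmn3 has 4. Translated and aligned to Stmn1, Stmn2 had 100 identical residues of 145 aligned, Stmn3 had 92 of 144 and Stmn4 had 100 of 145.

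The 6 libraries held 15091951 to 16885451 estimated counts each, at which 3 counts correspond to 0.178 to 0.199 CPM (counts scaled to a common library size). Ybx1 itself was at 1089 ± 182 CPM (SD, n = 3) in Ctrl and 24.6 ± 0.519 CPM (SD, n = 3) in cKO, which is 2.25% of the Ctrl mean. All 4 Y-linked genes examined were lower in cKO, with a summed level of 215 to 295 CPM in the Ctrl libraries and 0.929 to 1.47 CPM in the cKO libraries, so sex and genotype cannot be told apart. The labels give no sex. Ctrl replicate 2 stood apart from the other libraries. Its mean distance from its own group (root mean square difference of log2 CPM over genes) was 0.525, where the other 5 libraries had 0.293 to 0.46.

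Ctrl replicate 2 departed from the other 2 Ctrl libraries in step with transcript length. Genes with an effective length (the part of a transcript in which a fragment can start) of up to 1000 bases were higher there by a median of 0.52 on the log2 scale, and genes over 6000 bases were lower, with a median of -0.56. Ctrl replicate 3 leaned the other way, from -0.37 in the shortest class to 0.36 in the longest. The 7 genes span this range, since the effective length was 757 bases for Stmn1 and 833 for Stmn3, 1026 for Stmn4 and 1601 for Stmn2, 2789 for Sf1, 3761 for Pam and 7475 for Uhmk1 in Ctrl. These lengths were computed from the deposited counts and FPKM and then aligned between libraries by subtracting each library's median shift over 4579 genes, which was 16.5 bases in Ctrl replicate 2 and -7.54 to 4.35 bases in the others. In Ctrl replicate 2, Stmn3 was higher by 0.82 and Stmn1 by 0.57, while Uhmk1 was at -0.49. Whether the cause was the library or the embryo was not tested. The log2 fold change of each of the 7 genes is therefore given with all libraries, without Ctrl replicate 2, and after a correction that removes a smooth trend with transcript length and GC content from every library.

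**Figure D1:**
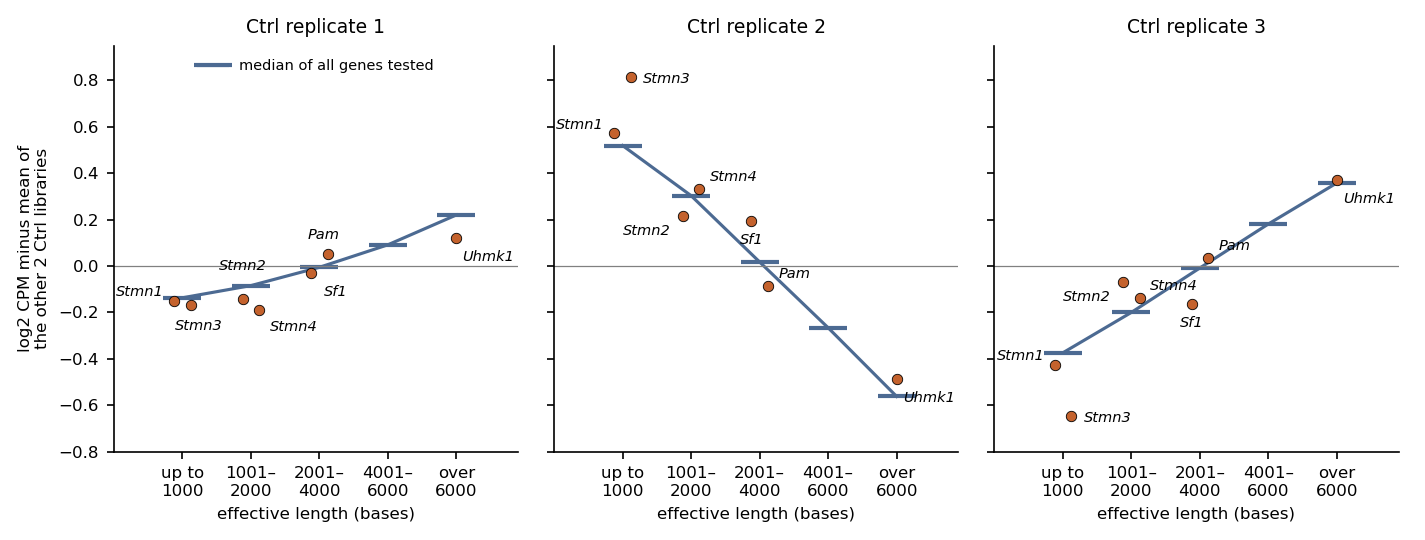
Each panel shows 1 Ctrl library. The y axis is the log2 CPM minus the mean of the other 2 Ctrl libraries, and the x axis is the effective length class in bases. Blue bars joined by a line are medians of all genes tested, and orange points are the 7 genes. In Ctrl replicate 2 the medians run from 0.52 in the shortest class to -0.56 in the longest, with the short Stmn1 and Stmn3 high and the long Uhmk1 low.

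The first question was whether loss of Ybx1 altered the level of Uhmk1 mRNA. Uhmk1 (Entrez 16589) lies on chr1:170193420-170215397, minus strand, and its reference transcript has 8 exons and 7864 bases, of which 1260 are coding. Its level was 82.3, 62.1 and 92.4 CPM in Ctrl replicates 1 to 3 and 56.2, 65.5 and 61.5 CPM in cKO replicates 1 to 3. The groups overlapped because Ctrl replicate 2 lay below cKO replicate 2, while the other 2 Ctrl libraries were above all cKO libraries. These values rest on 908 to 1348 counts per library. The mean was 78.9 ± 15.4 CPM in Ctrl and 61.1 ± 4.67 CPM in cKO (SD, n = 3 each), a log2 fold change of -0.37 (SE 0.152, 95% interval -0.71 to -0.024). Its unadjusted p was 0.0387 and its adjusted p 0.715 by edgeR's quasi-likelihood test, and the two-sided exact permutation test gave p = 0.2, where 3 against 3 allow no p below 0.1. The difference therefore did not pass the threshold over all genes, and Uhmk1 ranked 734 of 13570 by p.

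The size of this difference depended on the Ctrl library left out. Without Ctrl replicate 2, the log2 fold change of Uhmk1 was -0.52 (SE 0.0940, adjusted p = 0.037), with 0.891% of genes called in that fit and 0.701% called lower. Without Ctrl replicate 3 it was -0.24 (SE 0.145, adjusted p = 0.448), and without Ctrl replicate 1 it was -0.34 (SE 0.184, adjusted p = 0.877). Uhmk1 was likewise called lower after the length and GC correction. Its corrected level was 79.4, 84.9 and 82.3 CPM in the Ctrl libraries and 53.5, 63.4 and 57.2 CPM in the cKO libraries. The groups no longer overlapped (background 20.1% in either direction, 11.1% with cKO below), and Ctrl replicate 2 was the highest of the Ctrl libraries. The corrected mean fell from 82.2 ± 2.75 to 58.0 ± 4.98 CPM (SD, n = 3 each), a log2 fold change of -0.50 (SE 0.0823, 95% interval -0.69 to -0.32, adjusted p = 0.0255). In this fit 1.13% of all genes were called, and 0.892% were called lower in cKO. With the lengths implied by the deposited values in place of the annotated ones, an alternative chosen after seeing the data, the log2 fold change was -0.53 (adjusted p = 0.00968), in a fit that called 1.78% of genes. When 1 library was left out of the corrected fit, also added after seeing the data, it ranged from -0.57 to -0.45 and passed in 1 of 6 such fits, the one without Ctrl replicate 2, with adjusted p-values from 0.0176 to 0.163. The direction of Uhmk1 was the same in all 22 alternatives tried.

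**Figure D2:**
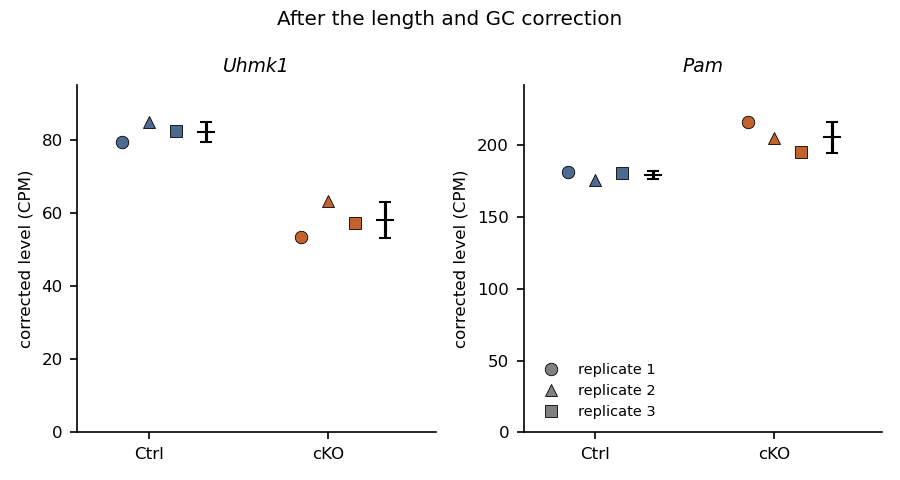
Level of Uhmk1 and Pam in CPM after the length and GC correction, by group. Points are libraries, with the shape giving the replicate number, and black bars are mean and SD. Uhmk1 lies at 79.4 to 84.9 CPM in Ctrl and 53.5 to 63.4 CPM in cKO, while Pam lies at 176 to 181 CPM in Ctrl and 195 to 216 CPM in cKO.

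Uhmk1 was also the least abundant of the 7 mRNAs per length. Its level in TPM (the share of all transcripts, scaled by length) was 22.8 ± 6.25 in Ctrl and 19.2 ± 1.39 in cKO (SD, n = 3 each, two-sided exact permutation test, p = 0.4). The difference was -3.55 TPM with all libraries and -6.93 TPM without Ctrl replicate 2. The effective length of Uhmk1 was 7475 ± 58.6 bases in Ctrl and 7481 ± 24.5 in cKO (exact permutation p = 0.9). It says little about the mix of isoforms. The 3 coding transcripts in GENCODE M21 have similar lengths (7676 to 7864 bases), and the Ctrl libraries alone spanned 7416 to 7533 bases. The 5 genes whose profile over the 6 libraries was most like that of Uhmk1, by the root mean square difference of centred log2 CPM, were Ddx6 (0.0566), Cdk19 (0.0604), Myh10 (0.0611), Elavl2 (0.0666) and Enc1 (0.0688). Their effective lengths were 3792 to 7480 bases, and none of them passed the adjusted threshold.

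The second question was whether the substrates and the wider stathmin family moved with the kinase. By edgeR's quasi-likelihood test, 0 of the 7 genes had an adjusted p under 0.05 (background 0.0737% of genes tested, 0.0516% lower and 0.0221% higher), and 1, Uhmk1, had an unadjusted p under 0.05 (background 6.62%). DESeq2 called 0 of the 7 as well (background 0.745%, 0.578% lower and 0.166% higher). In 3 of the 7 the groups did not overlap: Stmn2 and Stmn4 with every cKO library below every Ctrl library, and Pam with every cKO library above (background 14.3% in either direction, 6.93% below and 7.35% above). The log2 fold change was below 0 for Uhmk1, Sf1 and all 4 stathmins and above 0 for Pam. Across genes, its median also ran with effective length. It was -0.145 up to 1000 bases (Stmn1, Stmn3), -0.067 in the next class (Stmn2, Stmn4) and 0.119 over 6000 bases (Uhmk1). In the class of Sf1 and Pam it was 0.0021. The stathmins thus had the sign of their length classes, with Stmn1 (-0.12) near its class median, while Uhmk1 (-0.37) had the opposite sign. The cause of the shared sign was not tested.

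**Figure D3:**
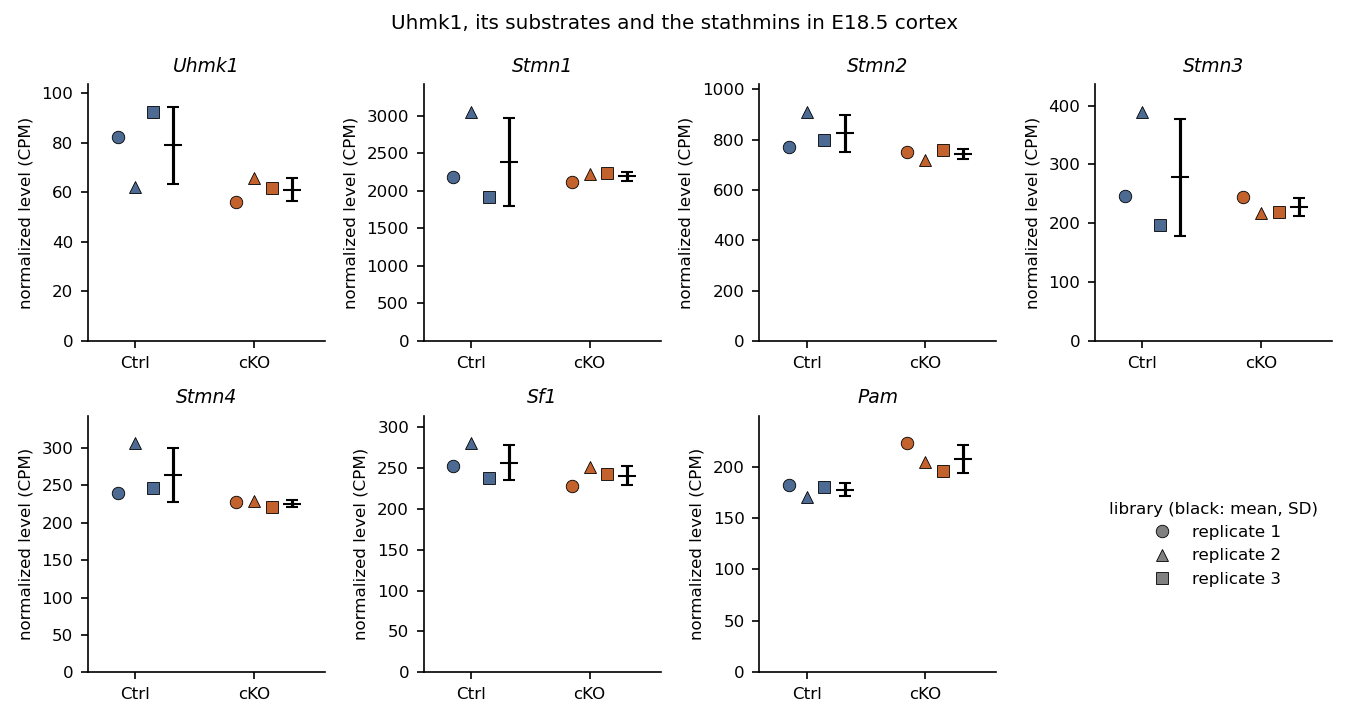
Level of each of the 7 genes in CPM by group, with the y axis starting at 0. Points are libraries, with the shape giving the replicate number, and black bars are mean and SD. Ctrl replicate 2 (triangle) is the lowest Ctrl library for Uhmk1, at 62.1 CPM, and the highest for the 4 stathmins and Sf1, while the cKO libraries lie close together.

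Stmn1 (Entrez 16765, chr4:134468320-134473843, plus strand) encodes the ubiquitous stathmin and is the substrate from which the kinase took its name. It lies on the same chromosome as Ybx1 (chr4:119277981-119294604). Its level was 2184, 3050 and 1923 CPM in the Ctrl libraries and 2124, 2222 and 2237 CPM in the cKO libraries, with the cKO values inside the Ctrl range. The mean was 2386 ± 590 CPM in Ctrl and 2194 ± 61.6 CPM in cKO (SD, n = 3 each), a log2 fold change of -0.12 (SE 0.169, 95% interval -0.50 to 0.26, adjusted p = 0.916). The sign turned without Ctrl replicate 2, at 0.096, and after the correction, at 0.022 (95% interval -0.14 to 0.19, adjusted p = 0.929). The profiles most like that of Stmn1 over the 6 libraries were those of Nagk (0.0173), Mdh2 (0.0222), Ndufv1 (0.023), Ndufa10 (0.0254) and Ldhb (0.026), genes of sugar and mitochondrial metabolism with effective lengths of 979 to 1305 bases.

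Stmn2 (Entrez 20257, chr3:8509360-8561606, plus strand), also known as SCG10, is a neuronal stathmin of growth cones. It measured 771, 910 and 797 CPM in Ctrl and 753, 720 and 758 CPM in cKO, so that the highest cKO library was just below the lowest Ctrl library. The log2 fold change was -0.15 (SE 0.112, 95% interval -0.40 to 0.10, adjusted p = 0.854), and the two-sided exact permutation p was 0.1, the smallest that 3 against 3 allow. It was -0.076 without Ctrl replicate 2 (adjusted p = 0.746). After the correction it was -0.21 (adjusted p = 0.461), with Ctrl replicate 2 at 1008 CPM against 784 and 743 CPM in the other Ctrl libraries, and -0.063 once that library was left out of the corrected fit. In TPM there was no such gap, with 1094 ± 39.5 TPM in Ctrl and 1096 ± 33.9 TPM in cKO (SD, n = 3 each, exact permutation p = 1). TPM also rescales each library by its summed FPKM, which was 522819 in Ctrl replicate 2 and 424951 to 446619 in the others. The effective length of Stmn2 was nearly the same in both groups (1600.6 and 1600.5 bases), so TPM and CPM differ here mainly in how each library is scaled.

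Stmn3 (Entrez 20262, chr2:181306459-181314500, minus strand), a neural family member also called SCLIP, measured 247, 389 and 198 CPM in Ctrl and 245, 218 and 219 CPM in cKO. The Ctrl libraries enclosed the cKO values, with Ctrl replicate 2 the highest of all and Ctrl replicate 3 the lowest of all. The log2 fold change was -0.29 (SE 0.220, 95% interval -0.79 to 0.21, adjusted p = 0.856) with all libraries, 0.032 without Ctrl replicate 2 and -0.097 after the correction (adjusted p = 0.675).

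Stmn4 (Entrez 56471, chr14:66344296-66361680, plus strand), the stathmin also called RB3, measured 240, 306 and 246 CPM in Ctrl and 227, 229 and 221 CPM in cKO. All cKO libraries were below all Ctrl libraries. The mean was 264 ± 36.4 CPM in Ctrl and 226 ± 4.50 CPM in cKO (SD, n = 3 each), a log2 fold change of -0.23 (SE 0.122, 95% interval -0.50 to 0.049, unadjusted p = 0.096, adjusted p = 0.796, exact permutation p = 0.1). It was -0.11 without Ctrl replicate 2 and -0.11 after the correction (adjusted p = 0.584), where the groups did not overlap but the highest cKO library, at 238.6 CPM, came within the rounding of the lowest Ctrl library, at 238.9 CPM.

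Because the composition of the family does not depend on scaling between libraries, the share of each stathmin in the summed stathmin TPM was compared as well. Stmn1 made up 73.8 ± 1.38% in Ctrl and 75.2 ± 0.976% in cKO, Stmn2 12.4 ± 1.72% and 12.02 ± 0.395%, Stmn3 7.69 ± 0.982% and 7.09 ± 0.585%, and Stmn4 6.13 ± 0.630% and 5.70 ± 0.162% (SD, n = 3 each). The difference was within the spread of the Ctrl libraries for Stmn2, Stmn3 and Stmn4 and slightly above it for Stmn1, and the two-sided exact permutation p-values were 0.8, 0.5, 0.4 and 0.3 in that order. Summed over the 4 genes, the level was 8934 ± 1108 TPM in Ctrl and 9111 ± 81.2 TPM in cKO (exact permutation p = 0.8), a difference of 177 TPM that was 797 TPM without Ctrl replicate 2. For each 1000 TPM of stathmins there were 2.79, 1.57 and 3.53 TPM of Uhmk1 in the Ctrl libraries and 1.96, 2.24 and 2.12 TPM in the cKO libraries (exact permutation p = 0.5). Ctrl replicate 2 had the lowest ratio of all libraries and the other 2 Ctrl libraries the highest, and the difference of -0.52 between the group means was -1.05 without it. Uhmk1 (7475 bases) is far longer than the stathmins, so this ratio is open to the length trend too.

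**Figure D4:**
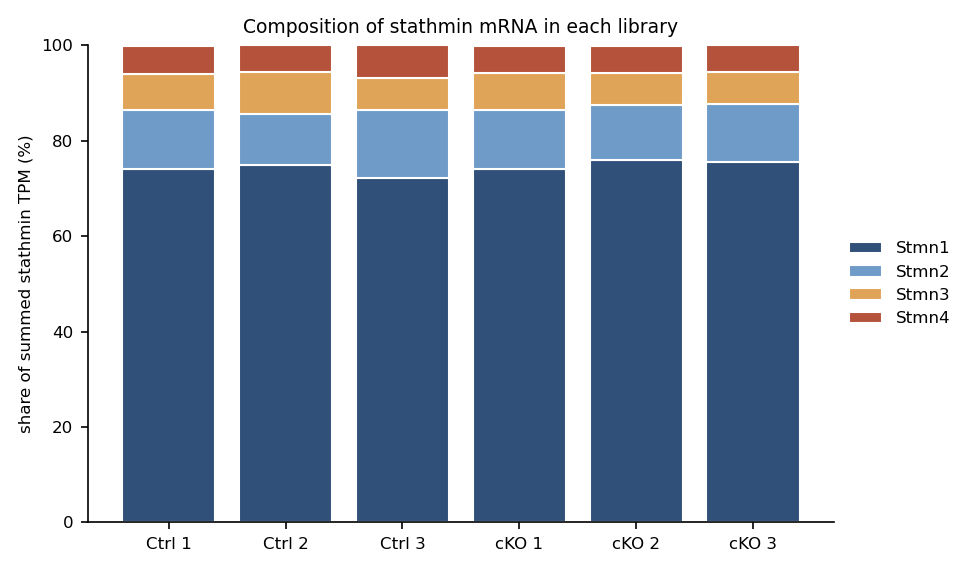
Share of each stathmin in the summed stathmin TPM, in percent, in each library. Every bar is 1 library and sums to 100%. Stmn1 takes 72.3% to 75.9% in all 6 libraries, and the order of the other shares is Stmn2, Stmn3, Stmn4 except in Ctrl replicate 3, where Stmn3 (6.76%) and Stmn4 (6.82%) change places.

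Per length, the order of the 7 mRNAs was Stmn1, Stmn2, Stmn3, Stmn4, Sf1, Pam and Uhmk1, with the same exchange of Stmn3 and Stmn4 in Ctrl replicate 3. Stmn3 (543 to 887 TPM) and Stmn4 (516 to 568 TPM) overlapped among the Ctrl libraries and did not overlap in cKO, where they were at 616 to 701 and 507 to 526 TPM. No other neighbours in this order overlapped in either group. Among the 7, the pair with the most similar profile of CPM over libraries was Stmn2 and Stmn4 (root mean square difference 0.0647), and the least similar pair was Uhmk1 and Stmn3 (0.476), the longest transcript and one of the shortest.

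Sf1 (Entrez 22668, chr19:6363690-6378030, plus strand) binds U2af2 in a complex that its phosphorylation by Uhmk1 favours. It measured 252, 280 and 237 CPM in Ctrl and 228, 251 and 243 CPM in cKO, with overlapping groups. The log2 fold change was -0.092 (SE 0.110, 95% interval -0.34 to 0.16, adjusted p = 0.902), -0.025 without Ctrl replicate 2 (adjusted p = 0.934) and -0.085 after the correction (adjusted p = 0.654). In TPM the sign was opposite, with 195 ± 4.15 in Ctrl and 203 ± 8.19 in cKO (SD, n = 3 each, exact permutation p = 0.2). The effective length of Sf1, a gene with 8 annotated coding transcripts, was 2789 ± 17.6 bases in Ctrl and 2786 ± 14.7 in cKO (exact permutation p = 0.9).

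Pam (Entrez 18484, chr1:97795114-98095646, minus strand) was the single gene of the 7 with a higher mean CPM in cKO with all libraries, before correction. On the TPM scale, which rescales each library by its summed FPKM, the means of Stmn1, Stmn2 and Sf1 were higher in cKO too. It measured 182, 171 and 180 CPM in Ctrl and 222, 204 and 195 CPM in cKO, so that every cKO library was above every Ctrl library. The mean was 178 ± 6.12 CPM in Ctrl and 207 ± 13.8 CPM in cKO (SD, n = 3 each), a log2 fold change of 0.22 (SE 0.103, 95% interval -0.011 to 0.46, unadjusted p = 0.0593, adjusted p = 0.773, exact permutation p = 0.1). It was 0.20 without Ctrl replicate 2 (adjusted p = 0.376) and 0.20 after the correction (SE 0.0672, 95% interval 0.045 to 0.35, adjusted p = 0.258), with the groups again not overlapping (background 8.97% with cKO above). It was above 0 in all 22 alternatives without passing the adjusted threshold in any. In TPM, Pam was at 106, 87.3 and 109 in Ctrl and 139, 127 and 122 in cKO, a ratio of means of 1.28 (exact permutation p = 0.1). On CPM the cKO mean of Pam was 117% of the Ctrl mean. Its effective length before alignment between libraries was 3749, 3783 and 3760 bases in the Ctrl libraries and 3765, 3763 and 3776 bases in the cKO libraries, with overlapping groups. After the median shift of each library was subtracted it was 3761 ± 6.63 bases in Ctrl and 3771 ± 2.25 in cKO (exact permutation p = 0.1), so that the separation of the groups rests on that step.

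**Figure D5:**
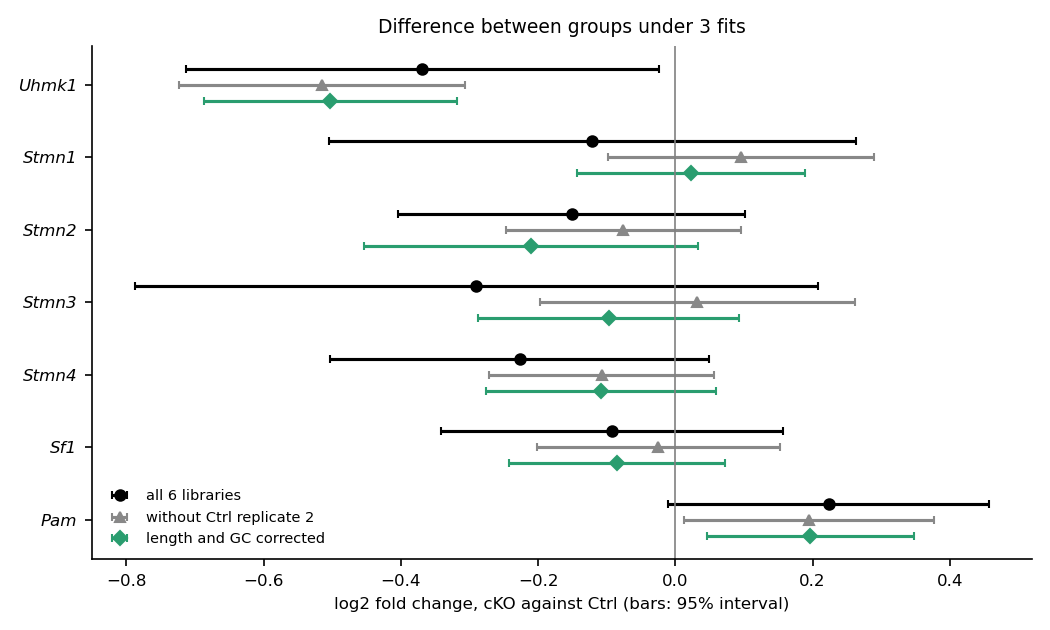
Log2 fold change of cKO against Ctrl for each gene, with 95% intervals, in 3 fits: all 6 libraries (black circles), without Ctrl replicate 2 (grey triangles) and after the length and GC correction (green diamonds). The intervals of Uhmk1 lie below 0 in each fit, at -0.37, -0.52 and -0.50, and Stmn1 and Stmn3 move to or across 0 once Ctrl replicate 2 is left out.

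Uhmk1 has further substrates outside the stathmins. Cdkn1b (p27Kip1), a cell cycle inhibitor that the kinase inactivates, was at 184 ± 11.0 CPM in Ctrl and 175 ± 16.97 CPM in cKO (SD, n = 3 each, log2 fold change -0.072, adjusted p = 0.922). Ptbp2, a neural splicing regulator, was at 414 ± 63.9 and 426 ± 13.1 CPM (log2 fold change 0.043, adjusted p = 0.958). Neither passed the test.

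No splicing partner of Sf1 or related UHM protein passed the test either. Of the 10 genes listed, 9 were tested, and 0 had an unadjusted p under 0.05 by edgeR or a call by DESeq2, with a median log2 fold change of -0.018 beside 0.0027 for all genes. The lowest p of the genes with a negative change was that of U2af1, the small U2AF subunit that reads the 3′ splice site (81 ± 16.1 to 67.5 ± 1.71 CPM, log2 fold change -0.26, adjusted p = 0.806). In the other direction it was Zrsr2, a factor of the minor spliceosome, with a log2 fold change of 0.11 (adjusted p = 0.885). Of 13 other kinases and kinase subunits that phosphorylate stathmins, 12 were tested and 0 had an unadjusted p under 0.05 or a DESeq2 call (median -0.015). The genes with the lowest p were Cdk2, a kinase of the G1 to S transition, at 16.1 ± 0.576 CPM in Ctrl and 13.8 ± 0.372 CPM in cKO (log2 fold change -0.22, adjusted p = 0.806), and Camk2a, a calcium-dependent kinase, at 15.03 ± 1.53 and 17.3 ± 1.11 CPM (log2 fold change 0.20, adjusted p = 0.841).

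Around Pam, 14 genes of neuropeptide processing and secretory granules were tested. None passed the adjusted threshold, 1 was higher at an unadjusted p under 0.05 (background 3.14%) and the median log2 fold change was 0.071, or 0.016 without Ctrl replicate 2. That gene was Pcsk2, the prohormone convertase that acts before Pam, with 32.7 ± 0.621 CPM in Ctrl and 54.3 ± 11.4 CPM in cKO (SD, n = 3 each, log2 fold change 0.73, adjusted p = 0.25). All cKO libraries were above all Ctrl libraries for Pcsk2 (background 7.35%), and DESeq2 called it higher (background 0.166%). Its adjusted p after the correction was 0.0662. The lowest p of the genes with a negative change was that of Pcsk1n, an inhibitor of the convertase Pcsk1 (log2 fold change -0.51, adjusted p = 0.83). Of 12 precursors of amidated peptides, 9 were in the table and 4 were abundant enough to be tested. Cck was at 7.82 ± 2.30 CPM in Ctrl and 5.16 ± 0.814 CPM in cKO (log2 fold change -0.60, adjusted p = 0.717) and was the 1 gene of this list with an unadjusted p under 0.05. Npy was at 62.2 ± 9.19 and 77.6 ± 16.2 CPM (log2 fold change 0.32, adjusted p = 0.796).

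Of 16 genes of the neurite cytoskeleton, to which the neural stathmins belong by function, 14 had a log2 fold change below 0 and 7 had a lower level in cKO at an unadjusted p under 0.05 (background 3.49%), but 0 passed the adjusted threshold. The median log2 fold change was -0.25. This list and that of the neuronal markers were chosen with earlier results of these data known. Their counts beside the background are therefore a description and no independent evidence. Mapt, which encodes the microtubule-binding protein tau, had the lowest p, with 1594 ± 68.5 CPM in Ctrl and 966 ± 56.3 CPM in cKO (SD, n = 3 each, log2 fold change -0.72, adjusted p = 0.0925). In the other direction, Map2, the dendritic microtubule-associated protein, had a log2 fold change of 0.16 (adjusted p = 0.888). DESeq2 called 2 of the 16 lower, Mapt and Tubb2b (background 0.578%). After the length and GC correction 3 of the 16 were called lower (background 0.892%). They were Mapt (adjusted p = 0.00119), Crmp1 (adjusted p = 0.0182), a collapsin response mediator, and Tubb2b (adjusted p = 0.0182), a neuronal beta-tubulin. Crmp1 and Tubb2b were named after their values were seen. Summed over the list, the level was 21730 to 23520 CPM in Ctrl and 17880 to 20290 CPM in cKO. Tubb2b alone averaged 4837 CPM in Ctrl and 3371 CPM in cKO. Summed over 9 neuronal markers, the level was 4707 to 5007 CPM in Ctrl and 4028 to 4105 CPM in cKO. Nsg2 alone averaged 1505 CPM in Ctrl and 1017 CPM in cKO, and 3 of the 9 had a log2 fold change above 0. Such sums follow the most abundant genes, and no background was computed for them. Of the 9, 0 passed the adjusted threshold in edgeR. At an unadjusted p under 0.05, 1 was lower (background 3.49%) and 1 higher (background 3.14%). DESeq2 called 1 lower (background 0.578%). The part of these genes in the stathmin values was not tested.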

How the data were processed

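RNA-seq libraries of E18.5 cortex (3 Ctrl, 3 cKO) were grouped by the submitters' labels. Of the 27 columns in the deposited table, 18 were used, which are all of its per-sample values. For every gene, the table deposited by the authors gives estimated counts, TPM and FPKM in each of the libraries. The submitters' processing notes name HISAT2 2.2.1, Bowtie2 2.4.5, RSEM 1.3.1 and GRCm38 (mm10), with no role or order. The remaining columns are identifiers and the authors' group means, which were not used. Strandedness is not given in the sources used here.

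Estimated counts were rounded, filtered with filterByExpr, scaled by TMM and compared with edgeR 4.0.16 in R 4.3.3 (quasi-likelihood test, Benjamini-Hochberg adjustment over all 13570 genes, threshold 0.05). CPM values are on TMM-scaled library totals. The deposited TPM values were used as they are for levels per length. Effective length was derived from the deposited count and FPKM, minus the library's median shift over 4579 genes. Permutation tests were exact and two-sided. The correction removed a smooth trend with transcript length and GC content (mgcv 1.9.3, GENCODE M21, 96.7% of genes) per library. Alternatives were DESeq2 1.42.0, limma 3.58.1 on log2(TPM + 1) and on log2(FPKM + 1), other filters and scalings, the replicate block and each library left out. The scripts were tested on simulated counts. Plots used matplotlib 3.10.9 (Python 3.11.15).

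The members and the 17 gene lists were chosen with earlier results of these data known. The text names, from each pathway list, every gene that passed and otherwise the lowest p in each direction, and, for Uhmk1 and Stmn1, the 5 most similar profiles. The floor of 3 counts and the precision it gives cover counting error only. No pair of replicates was a duplicate.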

Additional observations from a re-analysis of the deposited data

How the results depend on the processing

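The number of genes with an adjusted p under 0.05, 10 in edgeR with all libraries, was 94 with DESeq2, 153 after the length and GC correction, 161 with that correction and the replicate block, and 242 with the correction on deposited lengths. It ranged from 8 to 122 when 1 library was left out, with 122 without Ctrl replicate 2 and 19 without Ctrl replicate 3, and was 45, 239, 119, 46, 37 and 26 when Ctrl replicates 1, 2 and 3 and cKO replicates 1, 2 and 3 were left out in turn after the correction. Within the lists (125 genes tested in edgeR), 4 genes passed (all Y-linked), 8 with DESeq2, 8 after the correction, 10 with the block as well, and 4 to 7 with 1 library left out. The share called over all genes was 0.0737% in edgeR, 0.745% with DESeq2 and 1.13% after the correction.

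Uhmk1 (-0.37 on the log2 scale) passed the threshold after the correction (-0.50), with the block as well (-0.51), with deposited lengths (-0.53) and without Ctrl replicate 2 (-0.52). With 1 library left out it ranged from -0.52 to -0.24, and from -0.57 to -0.45 after the correction. Limma gave the value closest to 0, -0.20 on TPM (adjusted p = 0.65), and -0.28 on FPKM (adjusted p = 0.751). Stmn1 (-0.12) reversed to 0.022 after the correction, 0.024 with the block as well, 0.022 with deposited lengths and 0.063 with limma on TPM. It ranged from -0.25 to 0.096 with 1 library left out, and from -0.020 to 0.077 after the correction, where leaving out Ctrl replicate 1, Ctrl replicate 2 or any of the cKO libraries gave a value above 0 (0.0092, 0.077, 0.059, 1.0e-05 and 0.0061). With limma on TPM, Stmn2 was at 0.0021 and Sf1 at 0.059, both reversed. Stmn3 ranged from -0.48 to 0.032, reversed without Ctrl replicate 2. Stmn4 and Pam kept their direction in all 22 alternatives. The ratio of Uhmk1 to 1000 stathmin counts differed by -4.13 on CPM, which is not per length, beside -0.52 on TPM. The cause of these shifts was not tested.

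The deviations of same-numbered Ctrl and cKO libraries correlated at 0.0824, 0.0519 and 0.217, and those of different-numbered libraries at -0.135 to 0.0599. Ctrl replicate 2 correlated best with cKO replicate 1 (0.0599). These values do not settle whether the numbers pair embryos, and the main fit did not pair them. With the replicate block 11 genes passed, the log2 fold change of Uhmk1 was -0.35 (adjusted p = 0.643 in edgeR), and no call among the 7 genes changed.

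With 3 libraries per group, the p-values of the fits set a group difference against the spread between these libraries, moderated with values from all genes.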

Other observations

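Markers of other cell types were measured beside the 7 genes. None of the markers of progenitors (11 tested), interneurons (8), striatum and thalamus (6), oligodendrocyte precursors (5), astrocytes (5), microglia (7), endothelium (6), choroid plexus (1) or erythroid cells (6) passed the adjusted threshold in edgeR's quasi-likelihood test or in DESeq2, and Pax6, Aqp4 and Cdh5 had an unadjusted p under 0.05, each higher in cKO (log2 fold change 0.31, 0.74 and 0.41), beside a background of 3.14% of all genes higher at that threshold. A share of this size is near the background and is no result about these markers. The progenitor markers summed to 1261 to 1517 CPM in Ctrl and 1324 to 1390 CPM in cKO, the microglial markers to 47.4 to 60.6 and 54.4 to 57.7 CPM, the endothelial markers to 229 to 250 and 247 to 322 CPM, and the choroid plexus markers to 0.995 to 1.07 and 0.830 to 1.49 CPM. The median log2 fold change was 0.23 for endothelial and 0.062 for microglial markers, both from cells outside the neural lineage, and 0.24 for those of striatum and thalamus. With 1 library left out these medians ranged widely, to 0.082 for endothelium without cKO replicate 1, 0.21 for microglia without Ctrl replicate 2 and 0.042 for striatum and thalamus without cKO replicate 3. Of the 9 neuronal markers, 6 had a log2 fold change below 0 and 3 above. Nsg2, an endosomal protein of neurons, was lower by DESeq2 (background 0.578%) and after the length and GC correction (background 0.892%). Before correction it was at 1505 ± 43.4 CPM in Ctrl and 1017 ± 56.4 CPM in cKO (SD, n = 3 each). Syt1 went the other way, from 179 ± 30.3 to 256 ± 35.4 CPM (log2 fold change 0.52, adjusted p = 0.51 by edgeR's quasi-likelihood test and 0.0965 after the correction). Nsg2, Syt1, Pax6, Aqp4 and Cdh5 were named after their values were seen.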
